A study of Homo sapiens with 12 samples.

Results

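CPI203, a small-molecule inhibitor of the BET bromodomain proteins, was tested in the human multiple myeloma cell line ARP1 on 4 of the 12 arrays of this series. The 4 arrays were taken by their cell line label. Each held RNA of 1 culture condition: CPI203 alone at 0.01 µM (called CPI203), control cells, the triple combination of CPI203 at 0.01 µM with lenalidomide at 5 µM and dexamethasone at 0.05 µM (called Combo), and lenalidomide with dexamethasone at the same doses but no CPI203 (called LenDex). All were taken at 6 h, a time that the treatment protocol gives and the CPI203 title does not. CPI203 was therefore present on 2 arrays and absent from 2, and the effect was read in 2 pairs that share no array, CPI203 minus control and Combo minus LenDex. The other 8 arrays carry the labels JJN3 and RPMI-8226 and the same 4 treatments. No array had lenalidomide without dexamethasone or the reverse, so the parts of the 2 drugs cannot be told apart.

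BET proteins bind acetylated lysines on histones and bring the elongation kinase P-TEFb to promoters and enhancers. A BET inhibitor displaces them from chromatin. In myeloma cells such inhibitors are known for lowering MYC transcription, and in many cell types for raising HEXIM1, which restrains P-TEFb, and a group of histone genes. ARP1 is a myeloma line that grows in suspension, and myeloma is a malignancy of plasma cells.

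The deposited values are probe set levels on the log2 scale, and a difference of 1 is a change of 2-fold. Each of 18239 genes was represented by 1 probe set, and 15173 genes reached a level of 5 on at least 3 of the 12 arrays and were tested. The medians of the 4 ARP1 arrays lay between 5.33 and 5.36, and any ARP1 array correlated with another across genes at 0.987 to 0.994, against 0.867 to 0.887 with the other 8 arrays. The ARP1 arrays carried the markers of their label. The median of 15 plasma cell markers was 11.41 under CPI203, 11.55 in control, 11.17 under Combo and 11.28 under LenDex, and 14 of them averaged above 7 in ARP1. SDC1, the plasma cell proteoglycan CD138, lay between 11.78 and 12.26, while the B cell antigen gene MS4A1 lay between 4.59 and 5.33. The medians of the T cell, monocyte, fibroblast, epithelial and B cell marker lists lay between 4.87 and 5.51. Erythroid markers had medians of 5.24 to 5.67, apart from the fetal globin gene HBG1 at 12.26 to 12.40. The arrays labelled JJN3 and RPMI-8226 went against their labels in these 2 genes and in others. SDC1 lay there at 4.96 to 5.79, PRDM1 at 4.84 to 5.97, MS4A1 at 11.48 to 12.06 and CD79A at 10.89 to 11.58. On these arrays the medians were 5.95 to 8.41 for the plasma cell list and 6.55 to 7.5 for the B cell list. Other members did not go against the labels, such as IRF4 at 12.37 to 13.31. XBP1, at 10.27 to 10.66, was high but below its 12.72 to 12.79 in ARP1. The B cell gene BANK1, at 4.57 to 4.97, was also low in ARP1, at 4.5 to 4.73. The comparison with these arrays is therefore given under their labels only.

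The question was which transcripts CPI203 moves in ARP1 with and without LenDex. In limma, with the spread taken from how far the 2 pairs of a label disagreed over all 12 arrays, 0 of 15173 genes (0%) passed an adjusted p of 0.05 for CPI203 in ARP1. The smallest adjusted p was 0.117. At an unadjusted p under 0.05 there were 447 genes higher (2.95%) and 999 lower (6.58%). With a variance trend and a robust fit in the same tool, 23 genes were called higher and 66 lower. An exact permutation of 2 arrays against 2 cannot give a p below 33.3%. Nothing in the labels says that arrays came from separate cultures, so the p-values measure only the spread between these arrays. The values below are therefore described pair by pair. In a bulk sample, fewer cells with a transcript and less of it per cell cannot be told apart.

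The 2 pairs had little in common over all genes. Pearson's r between CPI203 minus control and Combo minus LenDex was 0.185 and Spearman's rho 0.172 across the 15173 genes, which are not independent replicates. Within JJN3 and RPMI-8226 labels the same r was 0.601 and 0.624. The effects in ARP1 were also narrower, with a standard deviation across genes of 0.25 and 0.28 in the 2 pairs, against 0.34 to 0.42 under the other labels. CPI203 minus control held 154 genes at least 1.5-fold higher (1.01%) and 336 lower (2.21%). Combo minus LenDex held 280 higher (1.85%) and 484 lower (3.19%). The overlap was 26 genes higher in both pairs (0.171%) and 65 lower in both (0.428%), while 21 passed 1.5-fold in opposite directions. The 26 are 16.9% of the first pair's higher genes and 9.29% of the second pair's, and the 65 are 19.3% and 13.4% of the lower ones. At 2-fold in both pairs there were 2 genes higher (0.0132%), the histone genes H2BC21 and H3C4, and 4 lower (0.0264%), SERF1A, OTUB2, SAMD9L and CCR1.

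**Figure D1:**
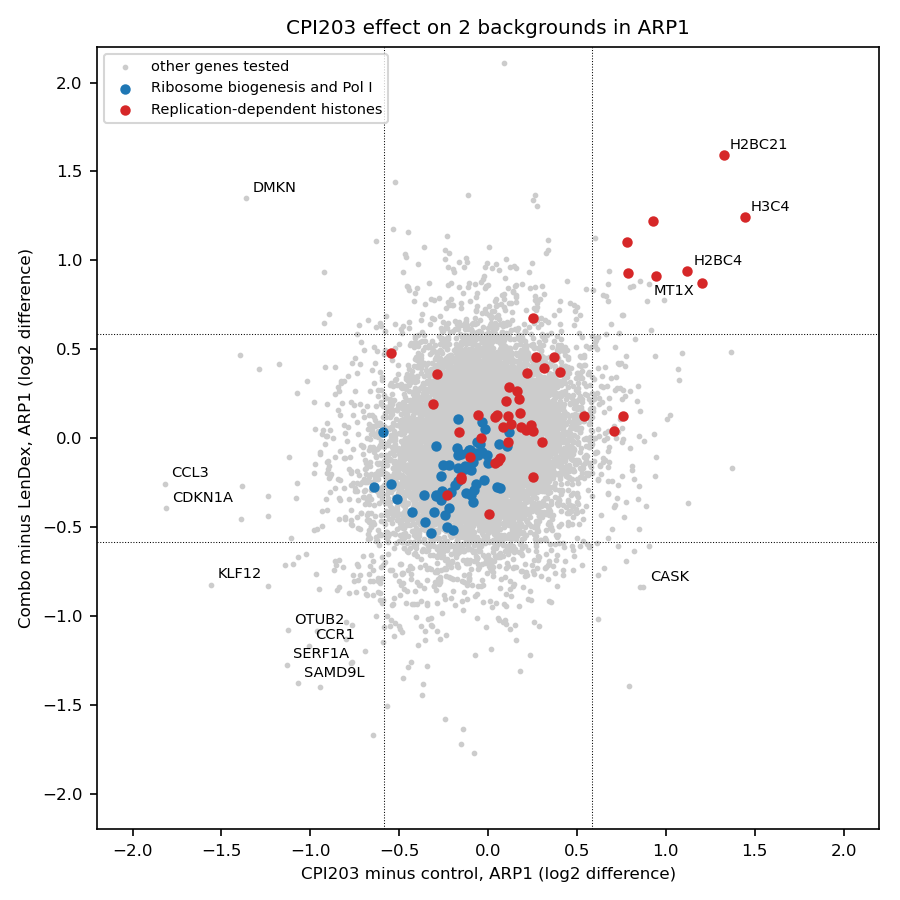
Each point is 1 of 15173 genes in ARP1, with the log2 difference CPI203 minus control on the x axis and Combo minus LenDex on the y axis; dotted lines mark 1.5-fold, red points are replication-dependent histone genes and blue points ribosome biogenesis genes. The upper right corner, 1.5-fold higher in both pairs, holds 26 genes with H2BC21 and H3C4 at its edge, and the lower left holds 65.

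Replication-dependent histone genes led the genes that were higher with CPI203. These genes encode the core and linker histones that package new DNA, most of their transcripts end in a stem-loop instead of a poly(A) tail, and they lie in clusters on chromosomes 6 and 1. Of 48 such genes tested, 31 were higher in both pairs and 5 lower in both, and 8 were at least 1.5-fold higher in both. Many of the 48 were near the low end of the scale, with median levels of 5.31 to 5.41 on the ARP1 arrays. Over all genes tested 23.6% were higher in both pairs, 32.9% lower in both and 0.171% at least 1.5-fold higher. The median over the 48 was 0.18 in CPI203 minus control and 0.13 in Combo minus LenDex, against -0.03 and -0.02 over all genes. It was 0.37 over the histone genes with a mean level of 6 or more.

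The promoters of 5 of the 8 histone genes are shown because 4 of them carry motifs common in their family and the fifth, H4C8, has none of these. They run from 250 bases before to 50 after the start, 5′ to 3′ on the gene's own strand, from RefSeq on GRCh38.p14. Capitals mark TATAAA (the TATA box), CCAAT (the CCAAT box) and TTTGCAT (the core of the octamer bound by OCT1) on either strand, and where matches overlap the capitals run together.
H2BC21 (chr1:149886633-149886932, minus strand): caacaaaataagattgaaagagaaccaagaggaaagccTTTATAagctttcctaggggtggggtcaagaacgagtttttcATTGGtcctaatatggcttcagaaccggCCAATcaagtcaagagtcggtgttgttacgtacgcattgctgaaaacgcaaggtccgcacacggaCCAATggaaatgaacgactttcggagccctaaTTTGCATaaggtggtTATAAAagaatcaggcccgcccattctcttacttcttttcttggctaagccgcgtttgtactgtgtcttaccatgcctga
H3C4 (chr6:26199244-26199543, minus strand): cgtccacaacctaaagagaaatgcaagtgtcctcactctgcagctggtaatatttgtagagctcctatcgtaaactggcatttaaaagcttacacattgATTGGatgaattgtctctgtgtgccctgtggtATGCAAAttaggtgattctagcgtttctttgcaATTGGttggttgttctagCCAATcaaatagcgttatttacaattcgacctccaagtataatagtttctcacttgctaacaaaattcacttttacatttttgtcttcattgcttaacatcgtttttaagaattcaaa
H2BC4 (chr6:26123877-26124176, minus strand): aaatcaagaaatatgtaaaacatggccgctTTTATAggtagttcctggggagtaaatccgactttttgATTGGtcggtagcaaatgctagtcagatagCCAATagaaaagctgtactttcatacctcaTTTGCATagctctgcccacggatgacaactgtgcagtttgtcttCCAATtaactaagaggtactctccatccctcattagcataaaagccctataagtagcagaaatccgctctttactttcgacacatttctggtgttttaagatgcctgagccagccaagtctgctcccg
H2BC11 (chr6:27132746-27133045, minus strand): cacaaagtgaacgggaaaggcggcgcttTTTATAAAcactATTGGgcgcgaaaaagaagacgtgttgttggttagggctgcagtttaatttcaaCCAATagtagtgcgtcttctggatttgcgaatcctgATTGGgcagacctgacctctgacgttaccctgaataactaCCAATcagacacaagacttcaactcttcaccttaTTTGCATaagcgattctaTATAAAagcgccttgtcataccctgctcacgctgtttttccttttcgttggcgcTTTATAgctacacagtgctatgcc
H4C8 (chr6:26285485-26285784, minus strand): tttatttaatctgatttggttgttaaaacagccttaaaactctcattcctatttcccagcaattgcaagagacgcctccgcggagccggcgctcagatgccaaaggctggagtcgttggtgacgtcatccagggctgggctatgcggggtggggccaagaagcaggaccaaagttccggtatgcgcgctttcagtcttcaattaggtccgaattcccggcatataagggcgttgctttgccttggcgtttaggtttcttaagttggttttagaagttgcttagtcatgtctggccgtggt

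TATAAA stood in the promoters of 6 of the 8 genes (75%), in 22 of 35 other histone promoters (62.9%) and in 7.76% of the 12193 promoters found for all genes tested. TTTGCAT stood in 6 of 8 (75%), in 15 of 35 (42.9%) and in 3.29% of all. CCAAT stood in 7 of 8 (87.5%), in 32 of 35 (91.4%) and in 36.6% of all. The E-box CACGTG, searched in the same way, was in 0 of 8, in 0 of 35 and in 9.4% of all. The windows of H2BC4 and H2AC6, and those of H2BC11 and H2AC11, cover mostly the same bases, so their matches are counted in both genes. The 1 TATAAA in the window of H2BC4 is that of H2AC6. A match is a description of the letters only. Histone genes often start back to back, and 4 of the higher genes form 2 such pairs: H2BC4 and H2AC6 start 246 bases apart, and H2BC11 and H2AC11 start 248 bases apart. In those pairs both partners were at least 1.5-fold higher in both comparisons. H2BC21 starts 236 bases from H2AC20 and H3C4 starts 223 bases from H2BC7. There the partners, named here after their values were seen, stood at 0.36 for H2AC20 and 0.12 for H2BC7 as the mean of both pairs.

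H2BC21, an H2B gene whose transcript can also be polyadenylated, had a level of 9.30 under CPI203 against 7.97 in control, and 9.05 under Combo against 7.46 under LenDex. Both arrays with CPI203 were above both without it. The mean difference was 1.46 ± 0.26 log2 units (SE), or 2.75-fold (limma adjusted p = 0.204). H3C4, an H3 gene, had 8.39 under CPI203 against 6.94 in control, and 8.34 under Combo against 7.09 under LenDex. The 2 groups again did not overlap, with a mean difference of 1.34 ± 0.20, or 2.54-fold (adjusted p = 0.169). H2BC4 had 6.67 under CPI203 against 5.56 in control, and 6.26 under Combo against 5.32 under LenDex. Its mean difference was 1.03 ± 0.13 (adjusted p = 0.117), and its level was the lowest of these 3 genes. H2AC6 had 8.81 under CPI203 against 7.61 in control, and 8.72 under Combo against 7.85 under LenDex. The difference was larger in the first pair, at 1.20, than in the second, at 0.87.

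H2BC11 had 10.06 under CPI203 against 9.13 in control, and 10.37 under Combo against 9.15 under LenDex. The mean was 1.08 ± 0.39, with an adjusted p of 0.473. H2BC5 had 9.38 under CPI203 against 8.43 in control, and 9.62 under Combo against 8.70 under LenDex. Its pairs were alike, at 0.95 and 0.91. H4C8, an H4 gene, was higher by 0.78 and 1.1, and H2AC11 by 0.79 and 0.93. H2AC7, which was not on the list of 48, was higher by 0.76 and 0.69. Of the rest of the list, the linker histone gene H1-2 was higher by 0.40 and 0.37 at a level near 11, while H4C3 and H2BC12, both above 13, differed by 0.04 and 0.12 and by 0.17 and 0.22. Histone coding sequences are close to each other, and probe sets of H2BC4, H2BC11, H2AC6, H4C8 and H2AC7 are of the kinds that match more than 1 transcript, so a value may hold signal of a near-identical gene. The other single-symbol probe sets of H2BC11 and of H2BC5 with a mean ARP1 level of 5 or more, 2 for each gene, were also higher in both pairs.

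**Figure D2:**
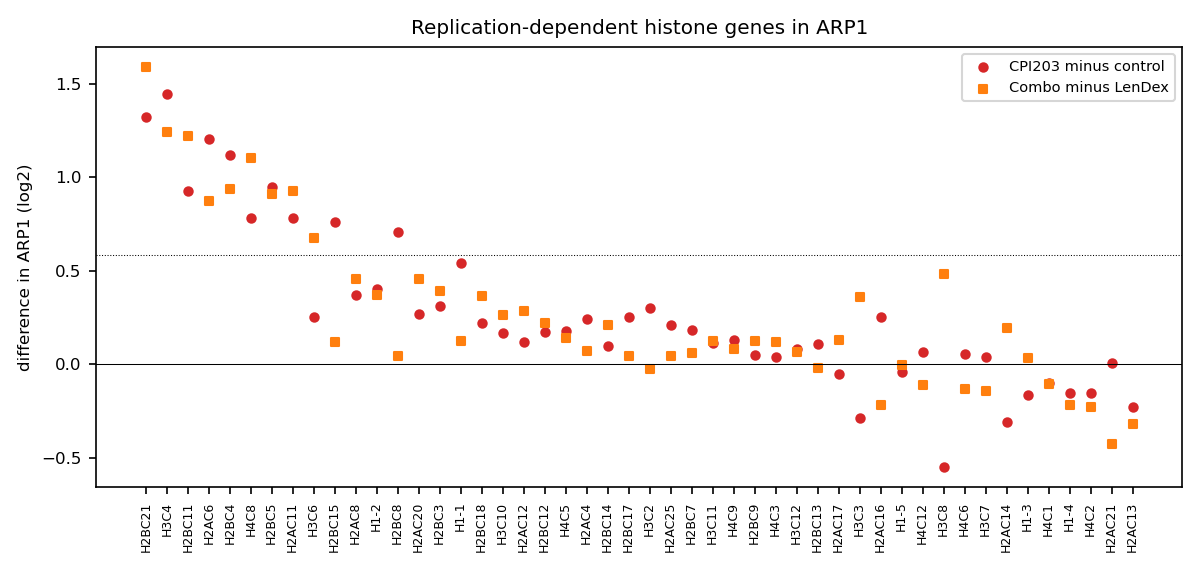
The 48 replication-dependent histone genes of the list in ARP1, ordered by the mean of both pairs, with the log2 difference on the y axis for CPI203 minus control (circles) and Combo minus LenDex (squares). The 8 genes on the left have both points above the dotted line at 1.5-fold, and most of the others lie within 0.5 of 0.

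Outside the histones, the genes with the largest smaller-of-both-pairs difference were FZD3, TTLL3, THEMIS2, TESK2, APOLD1 and MT1X. MT1X, a metallothionein that binds zinc and copper, had a level of 9.42 under CPI203 against 8.53 in control, and 9.66 under Combo against 8.89 under LenDex. Both arrays with CPI203 stood above both without it (mean 0.83 ± 0.10, 1.78-fold, adjusted p = 0.117). The MT1X probe set is also of a kind that matches more than 1 transcript, so its value may hold signal of a related gene. Of 11 metallothionein and zinc genes, 3 were higher in both pairs and 3 lower in both, among them MT1F at -0.76 and -0.49. Each share was 27.3%, against 23.6% higher and 32.9% lower over all genes. TTLL3, a ligase that adds glycine to tubulin, had 6.26 under CPI203 against 5.41 in control, and 6.26 under Combo against 5.38 under LenDex. TESK2, a kinase that phosphorylates cofilin, was higher by 0.80 and 0.85, and THEMIS2, an adaptor of B cell receptor signalling, by 0.81 and 0.85. FZD3, a Wnt receptor, was higher by 0.91 and 0.86, and APOLD1 by 0.99 and 0.78. Other probe sets of a gene, counted at a level of 5 or more, did not always give the same direction. For FZD3 and TTLL3 0 of 2 other probe sets were higher in both pairs, and for THEMIS2 2 of 6 were. Over the 15 genes named as higher, 12 of 20 other probe sets were. SAT1, which acetylates spermidine and spermine and was among the BET-induced genes, was higher by 0.66 and 0.80.

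The genes that were lower with CPI203 were more varied. OTUB2, a deubiquitinating enzyme, had a level of 8.23 under CPI203 against 9.36 in control, and 7.79 under Combo against 8.87 under LenDex. Both arrays with the drug were below both without it (mean -1.10 ± 0.10, 2.15-fold lower, adjusted p = 0.117). CCR1, a receptor for the chemokines CCL3 and CCL5 that promotes migration of myeloma cells, had 7.55 under CPI203 against 8.56 in control, and 6.40 under Combo against 7.57 under LenDex. Its mean difference was -1.09 ± 0.13 (adjusted p = 0.117), and the LenDex array was level with the CPI203 array. SAMD9L, an interferon-induced repressor of growth, had 7.19 under CPI203 against 8.26 in control, and 6.56 under Combo against 7.94 under LenDex. All 3 of its other probe sets were also lower in both pairs. SERF1A had 6.70 under CPI203 against 7.83 in control, and 5.67 under Combo against 6.94 under LenDex. SERF1A has a near-identical copy in the genome, so the value is uncertain as to which copy it reads.

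UNC13C, a vesicle priming factor, had 8.45 under CPI203 against 9.40 in control, and 7.70 under Combo against 9.10 under LenDex. KLF12, a transcriptional repressor, had 5.27 under CPI203 against 6.82 in control, and 5.76 under Combo against 6.58 under LenDex. Of its 4 other probe sets, 1 was lower in both pairs. AK4, a mitochondrial adenylate kinase, had 5.15 under CPI203 against 6.11 in control, and 5.20 under Combo against 6.28 under LenDex, but its 1 other probe set did not share the direction. RIPOR2, an inhibitor of the GTPase RhoA, differed by -0.95 and -0.85. The semaphorins SEMA6D and SEMA4A differed by -0.85 and -0.85 and by -0.84 and -0.84. CRACR2A, a calcium sensor of store-operated calcium entry, differed by -1.24 and -0.83. HOOK1, which links cargo to dynein, differed by -0.80 and -1.03, TDO2, an enzyme of tryptophan breakdown, by -0.80 and -1.13, and TTC9 by -0.78 and -0.87. Over the 15 genes named as lower, 14 of 21 other probe sets were lower in both pairs. Further genes of the 65, picked after their values were seen, were the Notch target HEY1 at -0.65 and -1.67, the cytokine subunit IL12A at -0.69 and -1.20, the ectonucleotidase NT5E (CD73) at -1.02 and -0.65 and the transcription factor MYB at -0.73 and -0.72. Their adjusted p lay between 0.169 and 0.255.

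**Figure D3:**
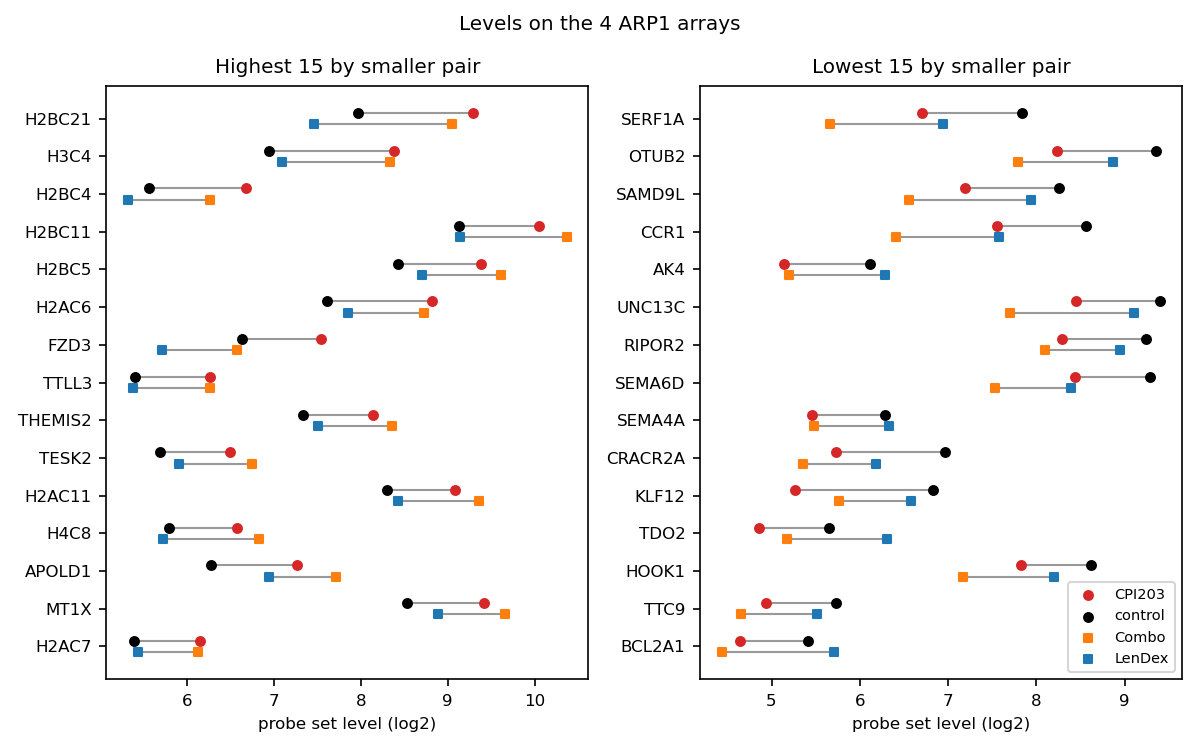
Probe set levels (log2) on the 4 ARP1 arrays for the 15 genes highest (left) and 15 lowest (right) by the smaller of both pair differences; circles are CPI203 (red) and control (black), squares Combo (orange) and LenDex (blue), and a line joins each pair. For H2BC21 the drug arrays stand at 9.30 and 9.05 and the others at 7.97 and 7.46, while for CCR1 the Combo array, at 6.40, lies well below the other 3.

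Genes that BET inhibitors are known to raise formed the list with the highest median. Of 15 tested, 14 were higher in both pairs and 1, CLU, lower in both, and 6 were at least 1.5-fold higher. Over all genes 23.6% were higher in both pairs, 32.9% lower in both and 0.171% at least 1.5-fold higher. The median was 0.49 in CPI203 minus control and 0.37 in Combo minus LenDex. Of the 15, 7 are histone genes described above. HEXIM1, the P-TEFb inhibitor used as a marker of BET inhibition, had a level of 10.58 under CPI203 against 10.36 in control, and 10.48 under Combo against 10.24 under LenDex. The mean difference was 0.23 ± 0.10 (1.17-fold, adjusted p = 0.542). SERTAD1, a CDK4-binding regulator, had 7.15 under CPI203 against 6.53 in control, and 8.20 under Combo against 7.80 under LenDex. Here LenDex alone stood above CPI203 alone. SERPINI1, the protease inhibitor neuroserpin, was higher by 0.49 and by 0.05, so the second pair showed next to no difference. TXNIP, which inhibits thioredoxin, was higher by 0.26 and 0.29. CLU, the chaperone clusterin, differed by -0.64 and -0.49.

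P-TEFb, 7SK and BET protein genes themselves went both ways. Of 23, 7 were higher in both pairs (30.4%) and 6 lower in both (26.1%), against 23.6% and 32.9% of all genes. The median was -0.01, and none passed 1.5-fold in both. BRD2 had 10.84 under CPI203 against 10.54 in control, and 10.62 under Combo against 10.16 under LenDex (mean 0.38 ± 0.13). CDK9, the kinase of P-TEFb, was higher by 0.24 and 0.32, and AFF4, a scaffold of the super elongation complex, by 0.26 and 0.26. ELL, an elongation factor of that complex, differed by -0.42 and -0.36.

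MYC transcripts were lower in both pairs by a similar amount. The level of MYC, the transcription factor that drives growth and ribosome production, was 12.03 under CPI203 against 12.35 in control, and 11.64 under Combo against 11.98 under LenDex. The LenDex array was level with the CPI203 array, so the 2 groups overlap unless they are paired. The mean difference was -0.33 ± 0.12, or 1.25-fold lower (adjusted p = 0.473). Of 13 genes of MYC and its MAX network 8 were lower in both pairs and 2 higher in both. These shares were 61.5% and 15.4%, against 32.9% and 23.6% of all genes. MGA, a MAX partner that opposes MYC, differed by -0.42 and -0.39, and MYCN, at a level between 5.19 and 5.84, by 0.32 and 0.45.

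Ribosome biogenesis and RNA polymerase I genes, among which are many MYC targets, were lower by small amounts. Of 59 tested, 50 were lower in both pairs (84.7%) and 1 higher in both, against 32.9% and 23.6% of all genes. The list median was -0.16 in CPI203 minus control and -0.18 in Combo minus LenDex, and no member passed 1.5-fold in both. POLR1B, the second-largest subunit of RNA polymerase I, had 9.48 under CPI203 against 9.91 in control, and 8.90 under Combo against 9.32 under LenDex (mean -0.42 ± 0.10, adjusted p = 0.309). RRS1, an assembly factor of the large subunit, had 10.51 under CPI203 against 10.87 in control, and 10.07 under Combo against 10.55 under LenDex. NOP16, BYSL and PPAN, also assembly factors, differed by -0.31 and -0.41, by -0.23 and -0.50, and by -0.36 and -0.32. The abundant nucleolar proteins nucleolin and nucleophosmin differed less, with NCL at -0.10 and -0.07 and NPM1 at -0.05 and -0.03. CACGTG, the E-box that MYC binds, stood in 15 of 52 promoters of the list (28.8%) against 9.4% of all. In the genes at least 1.5-fold lower in both pairs it stood in 6 of 53 promoters (11.3%). The list was chosen with earlier results of these data known, and its share describes the list. A part of MYC in these differences was not tested. The 36 cytosolic ribosomal protein genes had a median of 0.00, with 6 higher and 7 lower in both pairs. Metabolic and growth targets of MYC had 28 of 51 lower in both pairs and 5 higher, with a median of -0.06. RNA polymerase III genes had 12 of 26 lower and 7 higher, and mitochondrial translation and tRNA synthetase genes 16 of 35 lower and 6 higher.

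**Figure D4:**
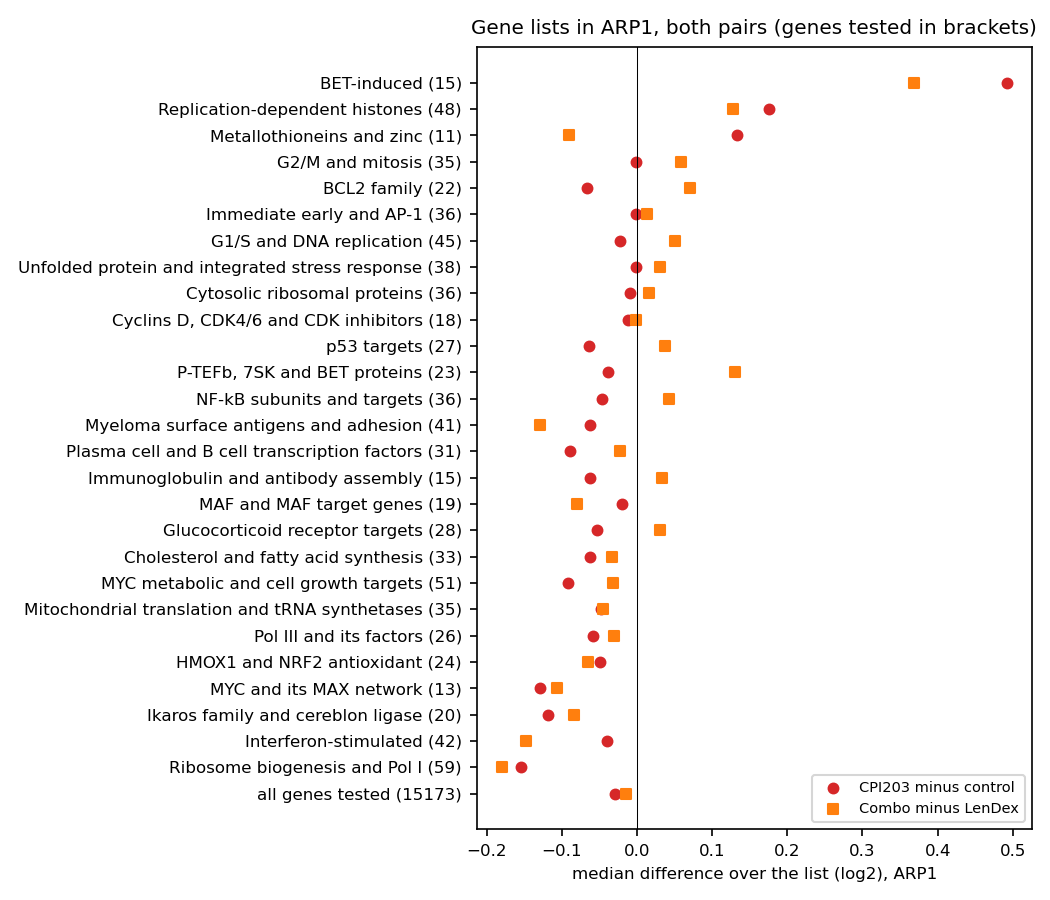
Median log2 difference in ARP1 over each of 27 gene lists for CPI203 minus control (circles) and Combo minus LenDex (squares), with the number of genes tested in brackets and all genes at the bottom. BET-induced genes stand apart at 0.49 and 0.37, ribosome biogenesis genes have the lowest pair at -0.16 and -0.18, and most lists lie within 0.15 of 0.

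The lymphoid factors that lenalidomide sends to cereblon for degradation were slightly lower at the transcript level. IKZF1 (Ikaros) had 9.64 under CPI203 against 9.94 in control, and 9.57 under Combo against 9.89 under LenDex. Both arrays with CPI203 were below both without it, with a mean of -0.31 ± 0.15 (adjusted p = 0.591). IKZF3 (Aiolos) had 8.81 under CPI203 against 9.02 in control, and 8.40 under Combo against 8.89 under LenDex. CRBN, the cereblon gene itself, differed by -0.28 and -0.29. Of 20 Ikaros family and cereblon ligase genes 11 were lower in both pairs (55%) and 0 higher in both. Over all genes these shares were 32.9% and 23.6%. The list median was -0.11, against -0.02 over all genes. These are transcript levels and do not measure the proteins.

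The transcription factors that define plasma cells differed by little between the arrays with and without CPI203. IRF4, on which myeloma cells depend, had 12.17 under CPI203 against 12.26 in control, and 11.92 under Combo against 11.83 under LenDex, so the pairs went opposite ways. XBP1, which drives the secretory apparatus, differed by 0.06 and 0.03, and PRDM1 (BLIMP1) by -0.10 and -0.32. Among 31 plasma cell and B cell transcription factor genes 11 were lower in both pairs (35.5%) and 4 higher (12.9%), against 32.9% and 23.6% of all genes. POU2AF1, a coactivator of octamer factors, had 9.50 under CPI203 against 9.99 in control, and 8.75 under Combo against 9.52 under LenDex (mean -0.63 ± 0.15, adjusted p = 0.304). BATF, an AP-1 factor of lymphocytes, differed by -0.48 and -0.45. MAF, an oncogene, had levels of 10.88 to 11.45 in ARP1 and 4.76 to 6.47 on the arrays under the other labels. In ARP1 MAF differed by -0.02 and -0.08, and its target CCND2 by -0.06 and -0.17. Of 19 MAF and MAF target genes 9 were lower and 6 higher in both pairs. CCR1 was the 1 member past 1.5-fold, and the kinase gene NUAK1 differed by -0.54 and -0.48. The 15 immunoglobulin and antibody assembly genes had 4 higher and 4 lower in both pairs.

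Of 41 myeloma surface antigen and adhesion genes 16 were lower in both pairs (39%) and 8 higher (19.5%), near the 32.9% and 23.6% of all genes. IL6R, the receptor of the myeloma growth factor interleukin 6, had 8.61 under CPI203 against 9.37 in control, and 9.60 under Combo against 10.86 under LenDex. The Combo array stood above the control array, so the 2 groups overlap and the difference, -1.01 ± 0.22 (adjusted p = 0.283), is that within the pairs. ICAM2, an adhesion ligand of lymphocytes, differed by -0.46 and -0.37. TNFRSF17, the plasma cell receptor BCMA, had 11.41 under CPI203 against 11.62 in control, and 11.35 under Combo against 11.55 under LenDex.

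Survival and signalling genes were mixed. BCL2A1, an antiapoptotic BCL2 protein and NF-kB target, had 4.64 under CPI203 against 5.41 in control, and 4.44 under Combo against 5.71 under LenDex, at the low end of the scale (mean -1.02 ± 0.14, adjusted p = 0.140). BCL2L11, the death inducer BIM, was higher by 0.69 and 0.34, and MCL1 by 0.18 and 0.10. BCL2 and BCL2L1 differed by -0.25 and -0.11 and by -0.24 and -0.24. The 22 BCL2 family genes had 8 lower and 6 higher in both pairs. Among 36 NF-kB genes 11 were higher and 10 lower in both, with the inhibitor NFKBIE at -0.50 and -0.58. TRAF1 differed by -0.59 and -0.71 at levels of 4.51 to 5.22, close to the median level of the T cell marker genes (4.94 to 5.00). Interferon-stimulated genes had 19 of 42 lower in both pairs (45.2%) and 5 higher (11.9%), against 32.9% and 23.6% of all genes, with a median of -0.15. IFI35 differed by -0.39 and -0.58, and SAMD9, the neighbour and relative of SAMD9L, by -0.40 and -0.67.

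Immediate early genes, which are transcribed within minutes of a signal, had 12 of 36 higher and 10 lower in both pairs, with a median of 0.02. Over all genes 23.6% were higher in both pairs and 32.9% lower. JUND was higher by 0.53 and 0.40 and IER3 by 0.72 and 0.52. EGR1, chosen after its values were seen, was higher by 0.34 and 1.12. ZFP36L1, which speeds the decay of AU-rich transcripts, had 10.05 under CPI203 against 10.67 in control, and 9.09 under Combo against 9.87 under LenDex. Of 38 unfolded protein and stress response genes 15 were higher and 13 lower. The stress-induced mTORC1 inhibitor SESN2 had 8.33 under CPI203 against 7.83 in control, and 8.46 under Combo against 7.73 under LenDex (mean 0.62 ± 0.11), while CHAC1, a glutathione-degrading enzyme of the same response, differed by -0.30 and -0.83. Among 27 p53 target genes 6 were higher and 9 lower, and the death receptor gene TNFRSF10B differed by -0.48 and -0.42.

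Cell cycle genes had medians near 0. The 45 G1/S and DNA replication genes had 14 higher and 14 lower in both pairs, and the 35 G2/M and mitosis genes 16 higher and 6 lower, with medians of 0.01 and 0.05. RRM2, a subunit of ribonucleotide reductase that peaks in S phase, was higher by 0.33 and 0.34. Over 18 cyclin D, CDK4/6 and CDK inhibitor genes 5 were higher and 6 lower. Of 33 cholesterol and fatty acid synthesis genes 15 were lower (45.5%) and 8 higher (24.2%), and of 24 HMOX1 and NRF2 antioxidant genes 13 were lower (54.2%) and 4 higher (16.7%), against 32.9% and 23.6% of all genes. Among 28 glucocorticoid receptor targets 10 were lower and 8 higher. PIK3IP1, an inhibitor of PI3K signalling, had 5.91 under CPI203 against 6.68 in control, and 7.47 under Combo against 8.52 under LenDex. Its levels with LenDex were above those without it on both sides of the comparison, and CPI203 went with a lower level in each pair (mean -0.91 ± 0.15).

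Some genes differed in size or direction between the pairs. CDKN1A, the cell cycle inhibitor p21, had 5.37 under CPI203 against 7.18 in control, but 7.69 under Combo against 8.09 under LenDex. The difference was -1.81 without LenDex and -0.40 with it. POLR3G, an RNA polymerase III subunit, differed by -0.62 and 0.04. CASK, a scaffold kinase, was higher by 0.87 in the first pair and stood at -0.84 in the second, and RBCK1, a subunit of the linear ubiquitin ligase, at 0.85 and -0.84. DMKN went the other way, at -1.36 and 1.35, and so did ST8SIA2, a polysialic acid synthase, at -0.92 and 0.93. IL21R, a cytokine receptor, stood at 0.78 and -0.69, and RYR1, a calcium release channel, at -0.63 and 1.11. With 1 array per condition, an interaction of CPI203 with LenDex and the error of a single array cannot be told apart.

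The CPI203 effect in ARP1 was then tested against the mean effect under the JJN3 and RPMI-8226 labels. In limma 139 of 15173 genes (0.916%) differed at an adjusted p under 0.05, of which 45 stood higher in ARP1 (0.297%) and 94 lower (0.62%). These calls rest on few arrays: 0 were made without the JJN3 control array, without any 1 of the 4 ARP1 arrays, or when each JJN3 array was averaged with its RPMI-8226 counterpart, the last chosen after seeing the data. They grew to 133 higher and 283 lower at a mean level of 6 or more, and to 358 and 539 with the variance trend and robust fit. For the 94 genes the median effect was -0.02 in ARP1, 0.996 under JJN3 and 1.23 under RPMI-8226. For the 45 it was 0.12, -1.17 and -1.26. Of the 45 genes 32 had a mean level of 5 or more in ARP1, against 93 of the 94, and a gene near the low end of the scale can show little decrease. Among genes with a mean of 5 or more on the ARP1 arrays, 30 were called higher and 88 lower.

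HEXIM1 was one of the 94, with a mean difference of 0.23 in ARP1 against 1.42 and 1.78 under JJN3 and RPMI-8226 (ARP1 minus others -1.37, adjusted p = 0.018). SERTAD1 had 0.51 in ARP1 against 2.45 and 3.31 (-2.37, adjusted p = 0.018). JUND had 0.46 against 2.03 and 2.54, and the histone gene H2AC25 had 0.13 against 1.54 and 2.68. These were genes of the BET-induced, immediate early and histone lists. DHRS2, a mitochondrial reductase, had 0.41 in ARP1 against 2.29 and 2.12, and the interferon regulator IRF7 0.21 against 2.25 and 1.68. ASMTL had 0.08 against 1.28 and 2.32, CSRNP2 0.34 against 1.65 and 2.35, and the costimulatory ligand gene TNFSF9 -0.21 against 1.42 and 1.41. MT1X, though 1.5-fold higher in ARP1, had the smaller effect there (-1.39, adjusted p = 0.018).

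In the other direction stood TNFRSF17, at -0.20 in ARP1 against -1.69 and -3.04 (ARP1 minus others 2.16, adjusted p = 0.018). Its level in ARP1 was above 11 on all 4 arrays. The other genes named in this direction were low in ARP1. FRMD4A, TLR10, OXTR, ARHGAP26, STARD13, ZHX2 and GCNT3 had mean levels of 5.02 to 5.81 there, near the low end of the scale.

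**Figure D5:**
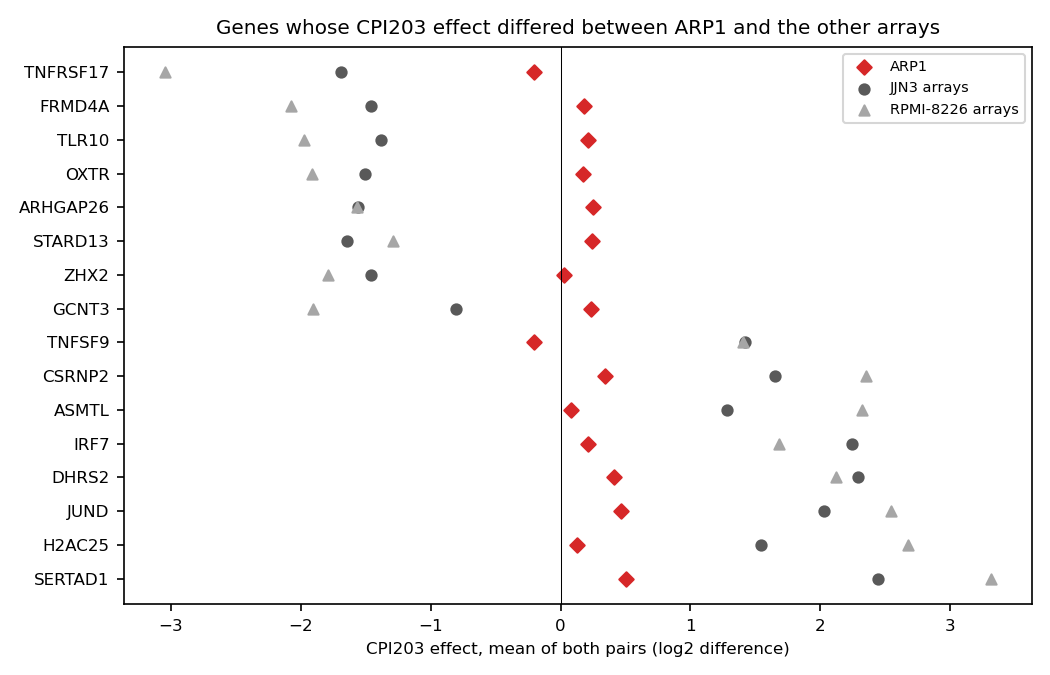
CPI203 effect (mean of both pairs, log2 difference, x axis) in ARP1 (red diamonds) and on the arrays labelled JJN3 (dark circles) and RPMI-8226 (light triangles) for the 8 genes called with the largest difference in each direction and a level of 5 or more in ARP1. The ARP1 values lie between -0.21 and 0.51, while those under the other labels reach -3.04 for TNFRSF17 and 3.31 for SERTAD1.

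The ARP1 values that chose the 65 genes at least 1.5-fold lower in both pairs also enter the difference from the other labels, so the 7 of them called there, against 0.62% of all genes, are given as a description. Among the 7 were OTUB2, with -1.10 in ARP1 against 0.05 and 0.08 (adjusted p = 0.0253), and CCR1, with -1.09 against -0.08 and -0.07 (adjusted p = 0.0444). SEMA6D had -0.85 against 0.05 and 0.14 (adjusted p = 0.0334), AK4 -1.03 against -0.13 and -0.26, and HOOK1 -0.92 against -0.12 and 0.12 (adjusted p = 0.044 for both). Of the 26 higher genes 2 were called, MT1X as above and THEM6 higher in ARP1. These calls too were lost when any 1 of the 4 ARP1 arrays was left out. The histone genes at the head of the list were not among the calls, with H3C4 at 1.34 in ARP1 against 2.0 and 1.97, and H2BC21 at 1.46 against 2.24 and 1.56. MYC had -0.33 against -0.33 and -0.86, and IKZF1 -0.31 against -1.46 and -1.34 (adjusted p = 0.0559). Of the 26 genes 17 had a mean effect above 0 under both other labels, against 35.7% of all genes. Of the 65, 36 had one below 0 under both, against 32.8% of all genes.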

How the data were processed

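RNA of 12 samples was hybridised to Affymetrix arrays after labelling 150 ng of total RNA each, per the labels' protocols. The submitters' processing notes name RMA and Affymetrix Expression Console 1.1, and the authors deposited log2 probe set values. RMA sets arrays processed together to 1 distribution, so a shift of all transcripts would be hidden; joint processing of the 12 is not given in the sources used here. Of 49386 probe sets, 45253 carried 1 gene symbol, 1327 several and 2713 none; 45172 matched the RefSeq table. The probe set with the highest mean stood for its gene. Groups came from the cell line and treatment labels. limma 3.58.1 (R 4.3.3) was fitted on 12 arrays with cell line, CPI203 within line and LenDex within line (9 terms, 3 residual degrees of freedom), two-sided, with Benjamini-Hochberg adjustment over 15173 genes, and tested on simulated data. The number of arrays limits the precision.

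Named genes were the 15 highest and 15 lowest by the smaller of both pair differences at an ARP1 mean of 5 or more, a panel of known drug targets and markers, the leading members of each list, the 8 largest called differences from the other labels each way at that same ARP1 mean or more, and genes whose pairs opposed. List members named outside this rule (H1-2, H4C3, H2BC12, SAT1, TXNIP, CLU, AFF4, ELL, NOP16, BYSL, PPAN, NCL, NPM1, SAMD9), the genes called in the difference test of which THEM6 is one, and those marked in the text were picked after their values were seen. Members, lists and tests were chosen with earlier results of these data known. Other level filters, probe sets singly, cyclic loess, a variance trend, other sets of arrays and leaving out arrays were tried.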

Additional observations from a re-analysis of the deposited data

Results flagged for a closer look

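The CPI203 effect in ARP1 differed from the mean effect under the JJN3 and RPMI-8226 labels in the limma difference test for 45 genes higher and 94 genes lower in ARP1. The differences (ARP1 minus others, log2) were 2.16 for TNFRSF17, 1.95 for FRMD4A, 1.89 for TLR10, 1.89 for OXTR, 1.81 for ARHGAP26, 1.71 for STARD13, 1.65 for ZHX2 and 1.60 for GCNT3. In the lower direction they were -2.37 for SERTAD1, -1.98 for H2AC25, -1.82 for JUND, -1.79 for DHRS2, -1.76 for IRF7, -1.72 for ASMTL, -1.66 for CSRNP2 and -1.62 for TNFSF9. On the arrays under the other labels the median of the plasma cell marker list was 5.95 to 8.41, against 11.17 to 11.55 in ARP1. The B cell marker list had medians of 6.55 to 7.5 there, against 5.09 to 5.29 in ARP1. Single markers varied, with XBP1 at 10.27 to 10.66 under the other labels against 12.72 to 12.79 in ARP1. The part of this contrast in the differences above was not tested.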

How the results depend on the processing

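Each condition had 1 array, so precision rests on how far 2 pairs disagreed, and level, probe set and array all bear on a single value. For CPI203 in ARP1 the variance trend and robust fit called 23 genes higher and 66 lower, and the other settings called 0, among them a fit of the 4 ARP1 arrays alone (1339 genes at an unadjusted p under 0.05, smallest adjusted p = 0.56 in limma). Of the genes past 1.5-fold in both pairs, testing all 35458 probe sets singly gave 43 higher and 149 lower. The difference from the other labels gave 133 higher and 283 lower at a mean level of 6 or more, and 358 and 539 with the variance trend. It gave 0 and 0 without the JJN3 control array, 0 and 0 without any 1 ARP1 array, and 0 and 0 with each JJN3 array averaged with its RPMI-8226 counterpart, which was chosen after seeing the data. The cause was not tested. The pairing by LenDex is a term of the fit, and without that term 678 genes had an unadjusted p under 0.05 for CPI203 in ARP1 (smallest adjusted p = 0.999 in limma). The other settings kept these counts within 1.5 times of those in the report.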
